A study of Mus musculus with 2 samples.

Results

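The genes described here encode the proteins of synaptic vesicles, the SNARE proteins that fuse vesicles with their target membranes, and the factors that dock, prime and clamp vesicles before release. They were chosen by gene symbol in the array annotation, by a rule that uses no measured value but was written with earlier results of these data known. The symbols taken were those of the synaptotagmins (Syt), synapsins (Syn), SV2 proteins (Sv2), synaptobrevins (Vamp), syntaxins (Stx), SNAP-25 homologues (Snap), syntaxin-binding proteins (Stxbp), complexins (Cplx), Munc13 proteins (Unc13) and RIM proteins (Rims), with synaptophysin (Syp), bassoon (Bsn) and piccolo (Pclo). The rule gave 68 of the 18194 genes to which at least 1 probe set was paired alone, and these 68 genes held 160 of 34958 such probe sets.

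RNA from the cerebrum of a lag mutant mouse at postnatal day 14 (P14) was compared with RNA from the cerebrum of a wild-type mouse of the same age, on 1 Affymetrix mouse genome array each. The lag (laggard) mutation is a spontaneous, recessive mutation at a splice site of Kif14, which encodes a mitotic kinesin, and mutants are lag/lag. It arose on a mixed background of C57BL/6N, DBA/2N and the strain that gave the RW4 embryonic stem cells of the founding line, and carriers were crossed to C57BL/6J. The series design describes the wild-type animal as a littermate, and how many mice gave each RNA sample is not stated in the sources used here. With 1 array per genotype, the spread between mice is unknown, no difference could be tested, and every value below describes these 2 arrays. Because whole cerebrum was used, fewer cells of a type and less RNA per cell cannot be told apart.

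Neurotransmitter release runs through a cycle. Vesicles filled with transmitter are tethered by synapsins, dock at the active zone, are primed by Munc13 proteins, and fuse when the vesicular SNARE Vamp2 zippers with the plasma membrane SNAREs, a syntaxin and Snap25. Synaptotagmins sense the calcium that enters with the action potential, complexins both clamp and promote the assembled SNARE complex, and clathrin adaptors such as Snap91 (AP180) help to retrieve the vesicle membrane. Other syntaxins and Vamp proteins serve endosomes, the Golgi apparatus and the surface of non-neuronal cells. At P14 the mouse forebrain is in the main period of synapse formation.

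Of the members differing at least 1.5-fold between the arrays (Cplx3, Syt12, Syt3 and Vamp3, whose values follow by role), the RefSeq promoter table (GRCm38.p6) held entries for Cplx3 and Syt3, and their promoters are shown for that reason. Each window spans 300 bases around an annotated start site, at chr9:57606232-57606531 on the minus strand for Cplx3 and at chr7:44383876-44384175 on the plus strand for Syt3. Capitals mark matches, on either strand, to the E-box CACGTG, the cyclic AMP response element TGACGTCA, the GC box GGGCGG, the TATA box, searched as TATAAA, or the CCAAT box, searched as the letters of its name.
Cplx3: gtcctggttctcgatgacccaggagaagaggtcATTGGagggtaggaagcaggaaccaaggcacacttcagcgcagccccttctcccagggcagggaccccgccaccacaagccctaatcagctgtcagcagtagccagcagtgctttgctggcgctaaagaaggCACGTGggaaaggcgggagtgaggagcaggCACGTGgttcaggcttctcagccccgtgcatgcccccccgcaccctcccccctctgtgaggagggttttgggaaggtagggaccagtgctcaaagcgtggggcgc
Syt3: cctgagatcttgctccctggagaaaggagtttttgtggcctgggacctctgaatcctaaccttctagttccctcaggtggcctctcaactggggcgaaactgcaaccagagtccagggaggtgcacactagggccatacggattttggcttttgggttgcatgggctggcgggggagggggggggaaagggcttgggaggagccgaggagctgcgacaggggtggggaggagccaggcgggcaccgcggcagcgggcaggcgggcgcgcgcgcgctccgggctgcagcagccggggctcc
The Cplx3 window held 2 E-boxes and 1 CCAAT box, and the Syt3 window held 0 matches to any of the 5 motifs. An E-box was found in 13.2% of 68 start site windows of 53 members, against 9.41% of 14310 windows of measured genes and 7.15% of all 32851 windows in the table. The GC box was in 64.7% of the members' windows, against 59.8% of those of measured genes, and the CCAAT box was in 27.9% and 37.1%. These matches are descriptions of letters, and they were not tested against the expression values.

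Signals were linear MAS5 intensities, and the trimmed mean over all probe sets was the same on both arrays. A single background level of 49.4 was used for both arrays, taken as the 95th percentile of 148 probe sets of olfactory, vomeronasal and taste receptor genes, keratin-associated protein genes and beta-defensin genes, which cerebrum is not known for expressing. A gene was called measured if its value was over this level on at least 1 array, and the probe set with the highest mean over both arrays stood for the gene. Signals under the level were raised to it, so that a fold with 1 array under it is a lower bound. General neuronal markers were level, with 5 of 10 higher and 5 lower in the mutant, a median log2 ratio of -0.001 and a summed signal of 81341 in the mutant against 82109 in wild-type. Oligodendrocyte markers were lower for 9 of 9 genes, with a summed signal of 2625 in the mutant against 39335 in wild-type. Kif14 itself gave 0.733 in the mutant and 6.85 in wild-type, both under background, so this probe set does not check the genotype labels.

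The synaptic vesicle and SNARE genes were nearly level as a set. Of the 68 members, 64 were measured, 62 of them on both arrays, and 29 were higher and 35 lower in the mutant. Their median log2 ratio of mutant over wild-type was -0.016, against 0.012 for all 13885 measured genes. Only 1 member, Syt12, was at least 2-fold higher (1.56% of 64, against 0.735% of all measured genes), and 0 were at least 2-fold lower (against 1.02%). At 1.5-fold, 2 members were higher (3.12%, against 4.25% of all measured genes), Syt12 and Cplx3, and 2 were lower (3.12%, against 3.54%), Syt3 and Vamp3. These shares are near those of all measured genes. The log2 ratios had a standard deviation of 0.31 across the 64 members and of 0.36 across all measured genes.

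**Figure D1:**
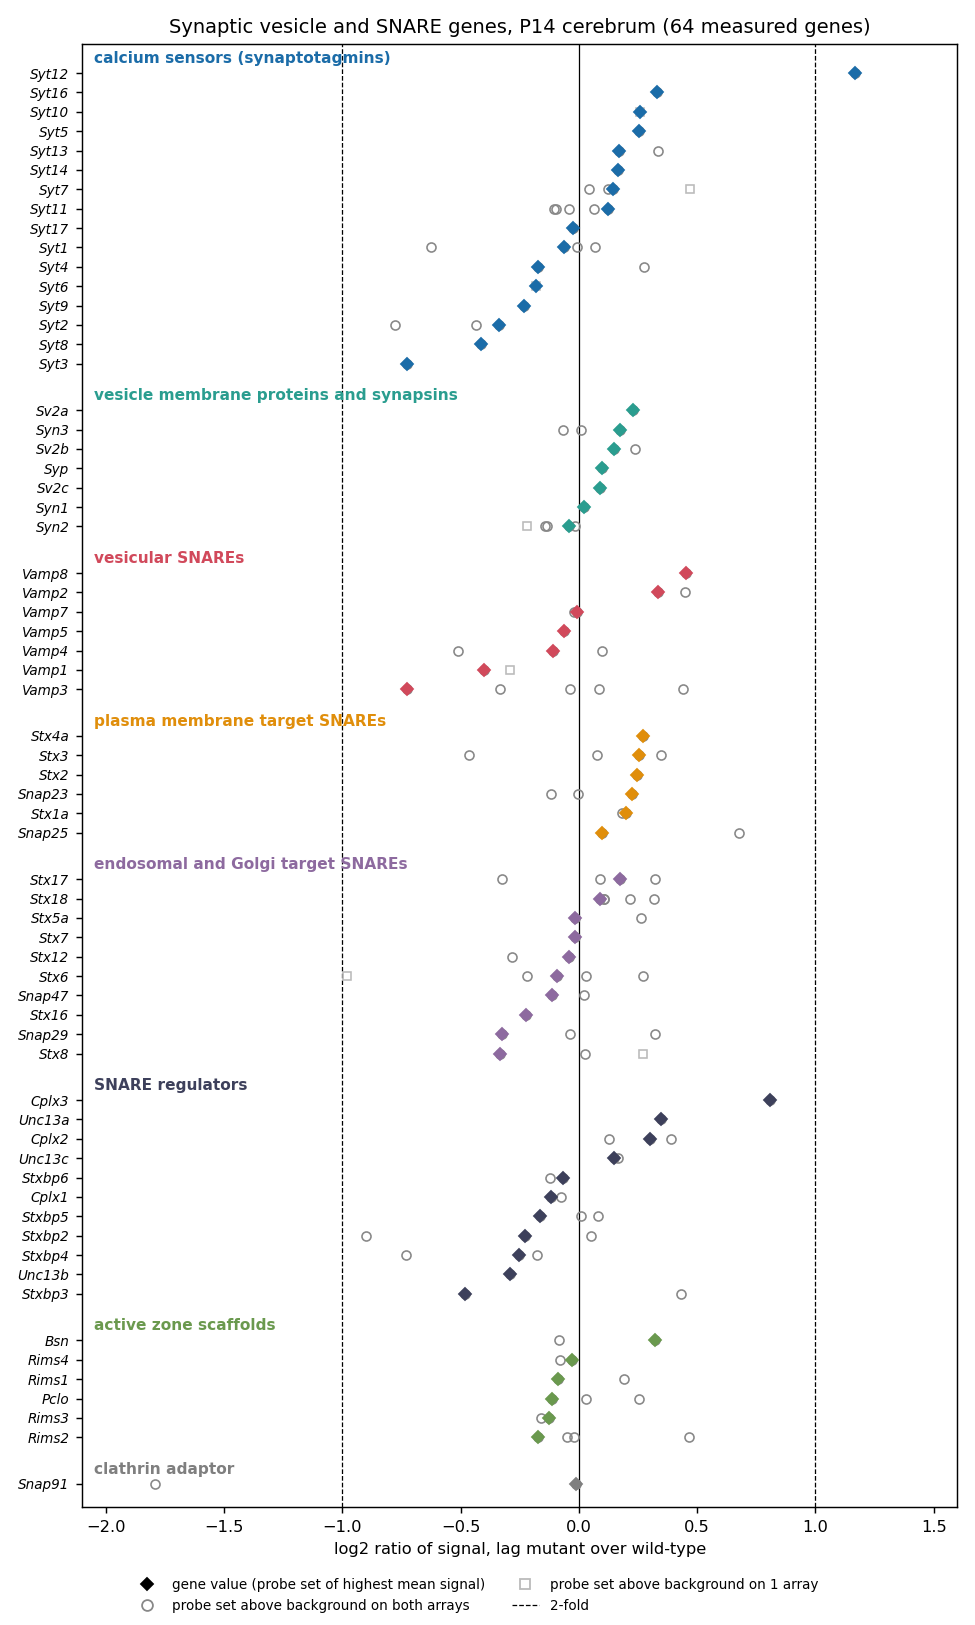
Log2 ratios of mutant to wild-type signal for the 64 measured synaptic vesicle and SNARE genes, grouped by role and ordered by value (1 array per genotype). Filled diamonds are the gene values, open circles are further probe sets above background on both arrays, open squares are probe sets above background on 1 array, and dashed lines mark 2-fold. Syt12 is the 1 diamond beyond 2-fold, and the lowest circle is a dim probe set of Snap91 at -1.79.

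Bright members varied less than dim ones. Of the 48 members with a mean signal of at least 500, 1 differed at least 1.5-fold (Vamp3, 2.08%, against 2.64% of 7150 such genes), and their standard deviation was 0.23, against 0.48 for the 16 measured members below that signal. Agreement between probe sets gives a second measure of precision, although probe sets of a gene share the RNA and the array. Over 42 members with at least 2 measured probe sets, the standard deviation between probe sets had a median of 0.18 on the log2 scale, against 0.20 over 6576 genes. In 21 of these 42 members the probe sets gave both signs, as they did in 3639 of the 6576 genes. Of the members' log2 ratios, 42 of 64 (65.6%) were within 0.25 of 0, against 67.4% for all measured genes. At like signal the members' share was lower, but it rests on few members. It was 72.9% (35 of 48) against 79.5% for genes with a mean signal of at least 500. Below that signal it was 43.8% (7 of 16) against 54.5% for measured genes. The standard deviation did not differ in the same sense at both signals. It was 0.23 for the bright members against 0.27 for all such genes, and 0.48 against 0.43 below that signal.

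**Figure D2:**
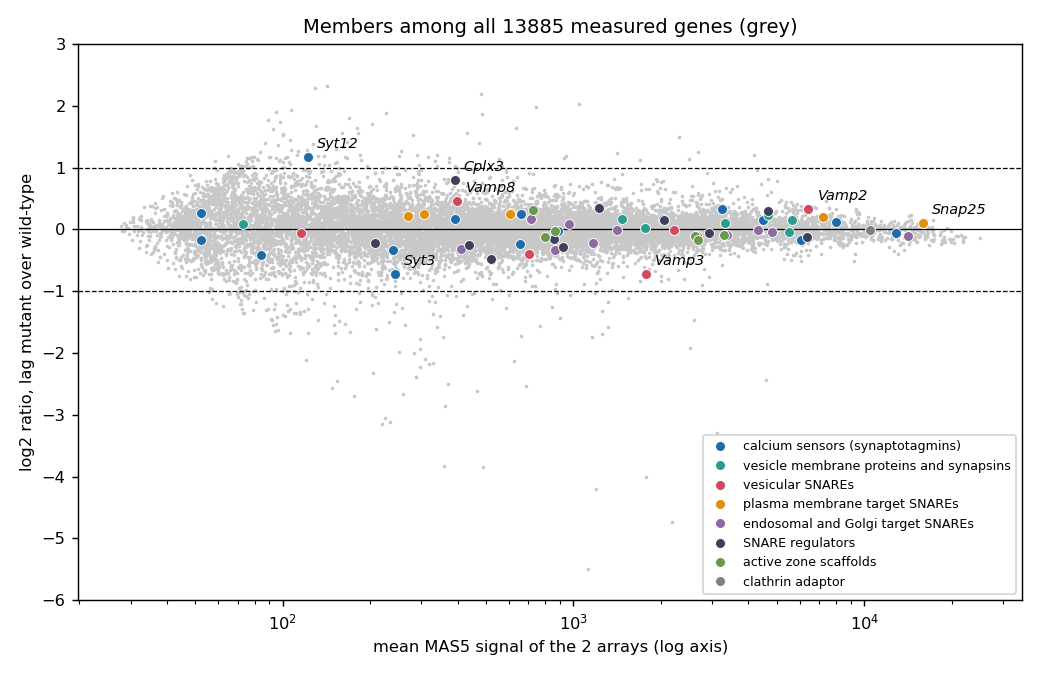
Log2 ratio, lag mutant over wild-type, against the mean MAS5 signal of both arrays on a log axis, for all 13885 measured genes (grey) and the 64 measured members coloured by role. The members follow the grey cloud, which is wider at low signal, and Syt12, Cplx3, Syt3 and Vamp3 lie furthest from 0.

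The vesicle membrane proteins and synapsins were 6 higher and 1 lower, with a median log2 ratio of 0.10 and a range of -0.04 to 0.23. Synaptophysin, an abundant tetraspanning protein of the vesicle membrane and a standard synapse marker, gave a signal of 3429 in the mutant and 3205 in wild-type, a log2 ratio of 0.10. Sv2a, a transporter-like glycoprotein present on nearly all synaptic vesicles, gave 5027 in the mutant and 4289 in wild-type (0.23), and its relative Sv2b gave 5955 and 5373 (0.15). Sv2c, which in rodents is found mainly in the basal ganglia and brainstem, was dim, at 75.4 in the mutant and 70.8 in wild-type. The synapsins, phosphoproteins that hold the reserve pool of vesicles, differed in sign and little in size. Syn1 gave 1779 in the mutant and 1752 in wild-type (0.02), and Syn3 gave 1559 and 1383 (0.17). Syn2 gave 5454 in the mutant and 5607 in wild-type (-0.04), and all 5 of its measured probe sets were lower. None of the 7 differed 1.5-fold.

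Among the vesicular SNAREs, 2 were higher and 5 lower, with a median of -0.06. Vamp2 (synaptobrevin-2), the vesicular SNARE of forebrain synapses, gave 7176 in the mutant and 5684 in wild-type, a log2 ratio of 0.34, and its second probe set gave 382 and 280 (0.45), so both probe sets were higher. Vamp1, its counterpart in brainstem, spinal cord and motor synapses, gave 608 in the mutant and 802 in wild-type (-0.40), and a dimmer probe set gave 9.72 and 60.5, at least 1.22-fold lower. The change of Vamp1 relative to Vamp2 was therefore -0.74 on the log2 scale, or 1.67-fold in size. This was the widest of the 9 pairs of related members compared. Of 7 other ways of processing the signals, only averaging probe sets (-0.74) and quantile normalisation (-0.71) could change it. The rest keep the same bright probe sets or cancel in a difference of ratios.

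Vamp3 (cellubrevin), a vesicular SNARE of endosomes that is broadly expressed and found in glia, gave 1338 in the mutant and 2215 in wild-type on its brightest probe set, a log2 ratio of -0.73 and 1.65-fold lower. Its other probe sets did not repeat that size. They gave 1017 in the mutant against 1281 in wild-type (-0.33), 1029 against 1055 (-0.04), 181 against 170 (0.09) and 101 against 74.9 (0.44). The mean over its 5 probe sets was -0.11, and the brightest is of a kind that can bind transcripts of other genes. Vamp8 (endobrevin), which serves regulated secretion in epithelial and blood cells, gave 459 in the mutant and 335 in wild-type (0.45). The endosomal Vamp4 gave 2568 and 2771 (-0.11), and the late endosomal and neurite Vamp7 gave 2203 and 2216 (-0.01).

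The target SNAREs of the plasma membrane were the only role group of several genes with every measured member on the same side. All 6 measured genes were higher in the mutant, by log2 ratios of 0.10 to 0.27, with a median of 0.23. The remaining 2, Stx11 and Stx19, were under background on both arrays. Snap25, which contributes a pair of helices to the neuronal SNARE bundle, gave 16408 in the mutant and 15349 in wild-type (0.10), with a dimmer probe set at 602 and 376 (0.68). Stx1a, the syntaxin of the presynaptic membrane, gave 7689 in the mutant and 6703 in wild-type (0.20), and its second probe set gave 2100 and 1850 (0.18). Snap23, the broadly expressed counterpart of Snap25, gave 290 in the mutant and 249 in wild-type (0.22), but its dimmer probe sets gave 137 and 138 (-0.002) and 59.5 and 64.6 (-0.12), with a mean of 0.03 over the 3. Stx4a gave 667 and 553 (0.27), and Stx2 gave 333 and 281. Stx3, a syntaxin of apical membranes and ribbon synapses, gave 658 in the mutant and 552 in wild-type (0.25), but another of its probe sets gave 347 and 479 (-0.46), so its sign depended on the probe set. With only the probe sets of plain suffix, whose names carry no letter before the final "at", 4 genes of this group were higher and 1, Stx3, was lower. Stx4a has no such probe set. On the probe set of highest mean signal, each gene of this group differed by less than 1.5-fold. The dimmer Snap25 probe set (0.68) was past 1.5-fold.

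The syntaxins and SNAP proteins of endosomes and the Golgi apparatus were 2 higher and 8 lower, with a median of -0.07. With only plain-suffix probe sets, 4 were higher and 5 lower. Snap47, an intracellular SNAP-25 homologue, gave 13578 in the mutant and 14708 in wild-type (-0.12), and Stx12 of endosomes gave 4748 and 4885 (-0.04). The lowest ratios were those of Stx8, a late endosomal syntaxin, at 766 in the mutant and 965 in wild-type (-0.33), and of Snap29, which acts in trafficking and autophagosome fusion, at 366 and 458 (-0.33). Both have other probe sets near 0 or above it, and with probe sets averaged both were at -0.01. Stx18, a SNARE of the endoplasmic reticulum, was higher on 5 of 5 probe sets, the brightest giving 992 in the mutant and 933 in wild-type (0.09). Stx6, of the trans-Golgi network, gave 3267 in the mutant and 3485 in wild-type (-0.09) on its brightest probe set, while a dim one was under background in the mutant and gave 97.2 in wild-type, at least 1.97-fold lower. Its other measured probe sets gave 1340 in the mutant and 1313 in wild-type (0.03), 521 and 607 (-0.22), and 243 and 202 (0.27), so its sign depended on the probe set.

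The synaptotagmins, of which 16 were measured, split evenly, with 8 higher and 8 lower and a median of 0.05. Syt1, the fast calcium sensor of forebrain synapses, gave 12626 in the mutant and 13204 in wild-type (-0.06). Of its dimmer probe sets, 1 gave 438 in the mutant and 675 in wild-type (-0.62), and the others gave 920 against 878 and 266 against 268. Syt2, the fast sensor of brainstem, cerebellar and some inhibitory synapses, was lower on 3 of 3 probe sets. They gave 212 in the mutant against 268 in wild-type (-0.34), 80.3 against 108 (-0.43) and 57.1 against 97.9 (-0.78). Relative to Syt1, Syt2 differed by -0.27, which is 1.21-fold in size. That is close to the median spread of 0.20 between probe sets of a gene, which does not itself measure a difference between genes.

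Syt12, a synaptotagmin that lacks calcium binding, stood highest of the measured members. Its single probe set gave 169 in the mutant and 75.2 in wild-type, a log2 ratio of 1.17 and 2.24-fold higher. The wild-type signal was not far above the background level of 49.4, and with background set at the 99th percentile (158) the ratio was 0.10. Syt3, a high-affinity sensor that in neurons has been placed both presynaptically and postsynaptically, was the lowest synaptotagmin. Its single probe set gave 183 in the mutant and 303 in wild-type, a log2 ratio of -0.73 and 1.66-fold lower. This probe set lies above every background level used, so only 2 of the other settings could change the ratio. They gave -0.68 (quantile normalisation) and -0.74 (centring on the median gene).

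The remaining synaptotagmins differed less than 1.5-fold. Syt7, a slow sensor involved in facilitation and asynchronous release, was higher on 4 of 4 probe sets, the brightest giving 4718 in the mutant and 4267 in wild-type (0.15). Syt11, which does not bind calcium, gave 8352 and 7682 (0.12) on its brightest probe set and -0.11 to 0.06 on the other 4. Syt16 gave 3601 in the mutant and 2865 in wild-type (0.33), Syt5 gave 721 and 604 (0.26), and Syt13 gave 2146 and 1910 (0.17). Syt4, an activity-regulated form of dense-core and other vesicles, gave 5681 in the mutant and 6403 in wild-type (-0.17), although its second probe set gave 4893 and 4047 (0.27). Syt9 gave 604 and 710 (-0.23), and the dim Syt8 gave 72.0 and 95.8 (-0.41). Syt10 and Syt6 were above background on 1 array each, at 59.0 in the mutant against 45.8 in wild-type and at 48.8 against 55.9, which makes them at least 1.20-fold higher and at least 1.13-fold lower.

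**Figure D3:**
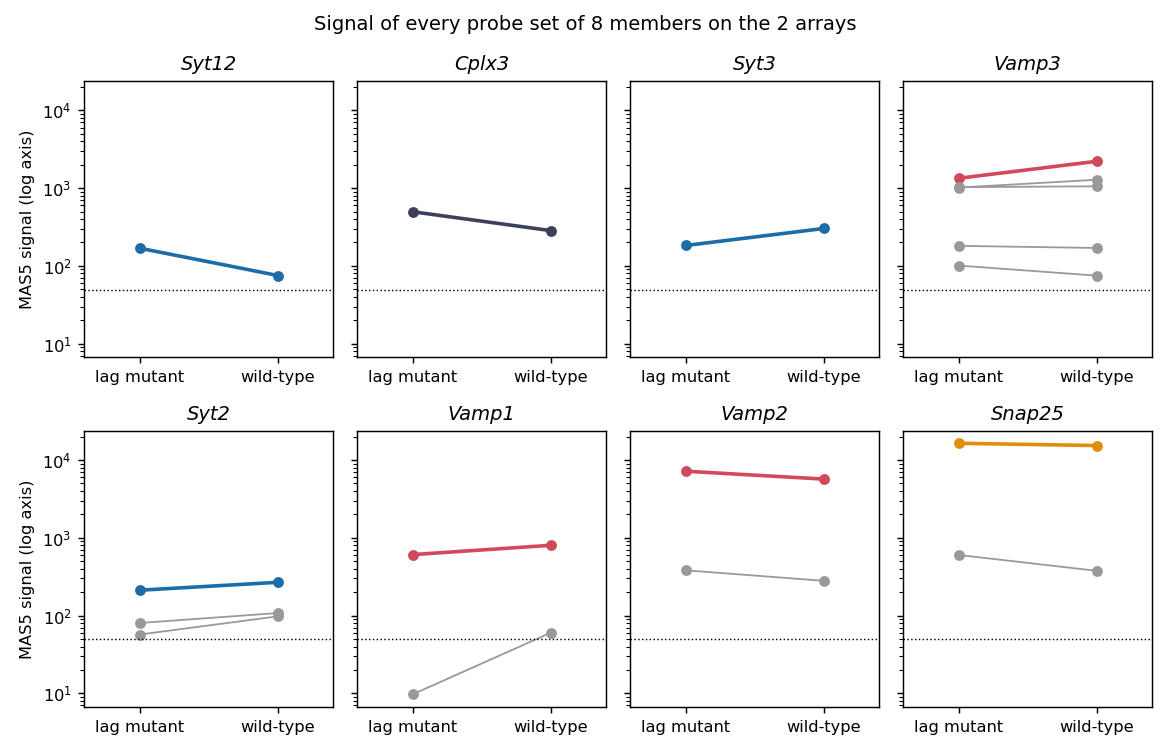
MAS5 signal on a log axis of every probe set of 8 members in the lag mutant (left of each panel) and wild-type (right), 1 array each. Coloured lines are the probe set of highest mean signal, grey lines the others, and the dotted line is the background level of 49.4. Syt12 and Cplx3 are higher in the mutant, Syt3 is lower, the 3 Syt2 lines all run lower in the mutant, and the 5 Vamp3 lines do not run one way.

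Of the regulators of SNARE assembly, 11 of 13 were measured, with 4 higher and 7 lower and a median of -0.12. The complexins moved apart. Cplx3, known from retinal ribbon synapses and in cortex from subplate and deep-layer neurons, gave 497 in the mutant and 284 in wild-type on its single probe set, a log2 ratio of 0.81 and 1.75-fold higher. Only quantile normalisation (0.84) and centring on the median gene (0.79) could change this ratio, since the single probe set lies above every background level used. Cplx2, the main complexin of excitatory forebrain neurons, was higher on 3 of 3 probe sets, which gave 5141 in the mutant against 4170 in wild-type (0.30), 3611 against 3306 (0.13) and 1538 against 1173 (0.39). Cplx1, which is more prominent in inhibitory and hindbrain neurons, was lower on 3 of 3, at 6101 in the mutant against 6614 in wild-type (-0.12), 3928 against 4137 (-0.08) and 822 against 891 (-0.12). Cplx1 relative to Cplx2 was -0.42, or 1.34-fold in size. Cplx4, a retinal complexin, was under background at 21.5 in the mutant and 26.6 in wild-type.

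Because Cplx3 stood out, 5 further genes known from subplate or layer 6b neurons were read after its value had been seen. All 5 were higher in the mutant, as were 7217 of all 13885 measured genes, and only Nr4a2 differed at least 1.5-fold. Nr4a2 gave 3153 in the mutant and 1942 in wild-type (0.70), and Nxph4 gave 90.2 and 64.3 (0.49). Ccn2 (Ctgf) gave 1347 in the mutant and 1125 in wild-type (0.26), Moxd1 gave 427 and 359 (0.25), and Tmem178 gave 2686 and 2587 (0.05). They are a description only, since they were chosen with the Cplx3 value known.

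The Munc13 proteins, which prime vesicles by opening syntaxin, differed by isoform. Unc13a, the main isoform of excitatory forebrain synapses, gave 1375 in the mutant and 1080 in wild-type (0.35), and Unc13c, best known from cerebellum, gave 2151 and 1938 (0.15) with a second probe set at 0.17. Unc13b gave 828 in the mutant and 1013 in wild-type (-0.29), and Unc13d, which serves secretion in blood cells, was under background. The 5 measured syntaxin-binding proteins were all lower on the probe set of highest mean signal. Stxbp6 (amisyn) gave 2867 in the mutant and 3003 in wild-type (-0.07), and Stxbp5 (tomosyn), which competes with Vamp2, gave 810 and 907 (-0.16), with other probe sets at 0.01 and 0.08. Stxbp3, which pairs with Stx4 outside synapses, gave 434 in the mutant and 607 in wild-type (-0.48), but its second probe set gave 81.7 and 60.5 (0.43). Stxbp4 was lower on 3 of 3 measured probe sets, the brightest giving 399 in the mutant and 476 in wild-type (-0.25). The others gave 207 in the mutant and 343 in wild-type (-0.73), and 67.8 and 76.6 (-0.175). Stxbp2 gave 191 in the mutant and 224 in wild-type (-0.23), and its other probe sets gave 177 and 171 (0.05) and 63.9 and 119 (-0.90), so for Stxbp2, Stxbp3 and Stxbp5 the sign depended on the probe set.

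The large scaffolds of the active zone, which position vesicles and calcium channels at release sites, were 1 higher and 5 lower, with a median of -0.10. Bassoon gave 807 in the mutant and 647 in wild-type (0.32), with a second probe set at 102 and 108 (-0.08). Piccolo, its relative, gave 2515 in the mutant and 2718 in wild-type (-0.11), while another probe set gave 1613 and 1353 (0.25). Of the RIM proteins, which tether calcium channels, Rims1 gave 3184 and 3387 (-0.09), Rims2 gave 2512 and 2834 (-0.17), and Rims3 gave 762 in the mutant and 833 in wild-type (-0.13). When probe sets of a gene were averaged, 4 of the 6 scaffolds were higher and 2 lower, so this group had no settled side. Snap91, a clathrin adaptor of vesicle retrieval, gave 10394 in the mutant and 10481 in wild-type (-0.01), although a dim probe set gave 50.7 and 175 (-1.79).

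Other pairs of related members differed by no more than 0.20. The median standard deviation between probe sets of a gene was also 0.20, but it does not measure the spread of a difference between genes. Sv2b and Sv2c relative to Sv2a were at -0.08 and -0.14, Rims3 relative to Rims1 at -0.04, and Syn3 relative to Syn1 at 0.15. Unc13c relative to Unc13a was at -0.20, and Snap23 relative to Snap25 at 0.13, but at -0.35 when probe sets of a gene were averaged.

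Other genes of the vesicle cycle, from 5 lists that do not overlap the members, were level as well, with 0 genes at least 2-fold different in any list. Of 12 other SNAREs, 7 were higher and 5 lower, with a median of 0.11. Sec22c, a SNARE-like protein of the early secretory pathway, gave 918 in the mutant and 490 in wild-type (0.91), and Gosr1, a Golgi SNARE, gave 1317 and 837 (0.65). Of 21 other vesicle proteins, 14 were higher and 7 lower (median 0.06), and of 21 other active zone and fusion proteins, 12 were higher and 9 lower (0.01). Vesicle endocytosis genes were 10 higher and 14 lower (-0.03), with Ap2b1, a subunit of the clathrin adaptor AP-2, at 4146 in the mutant and 2741 in wild-type (0.60). Among 7 vesicular transmitter transporters, 2 were higher and 5 lower (-0.02), and Slc18a1, a monoamine transporter, gave 77.6 in the mutant and 32.8 in wild-type, at least 1.57-fold higher.

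**Figure D4:**
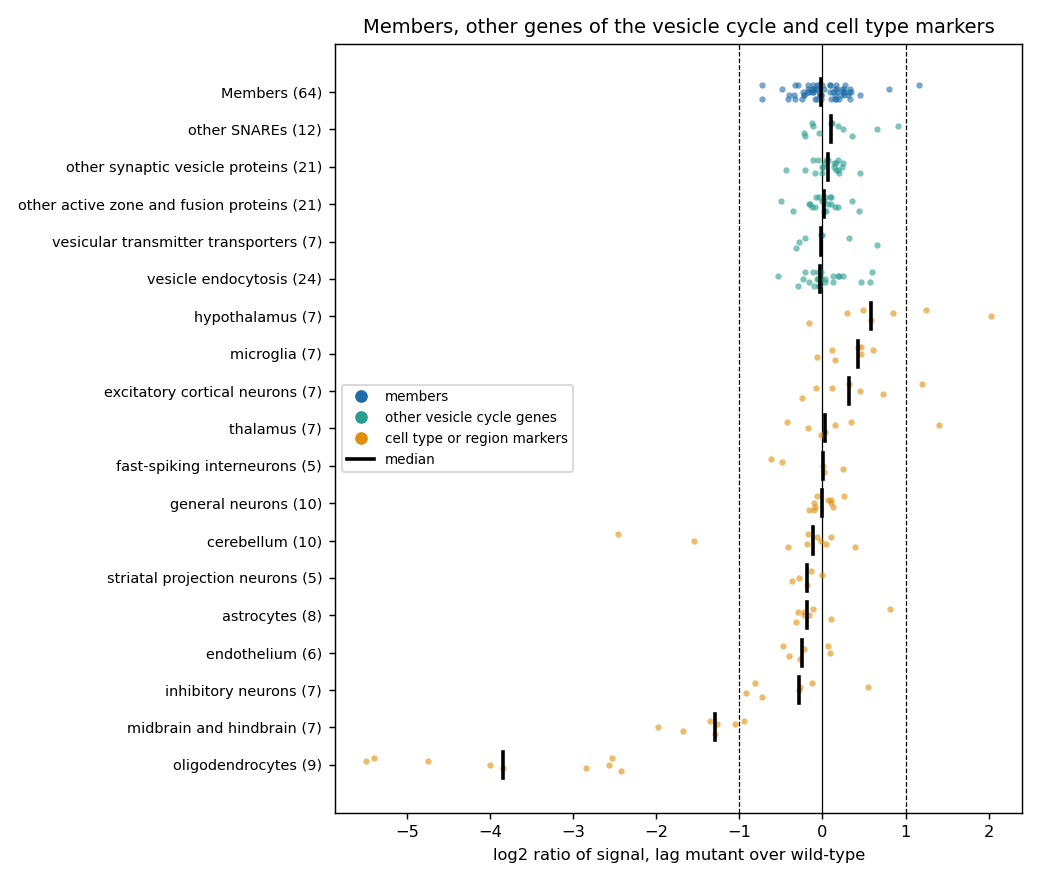
Log2 ratio, lag mutant over wild-type, of each measured gene (points) and the median (bar) for the 64 members, 5 lists of other vesicle cycle genes and 13 lists of cell type or region markers, with the number of measured genes in brackets (1 array per genotype). The members and the vesicle cycle lists centre on 0, while oligodendrocyte markers have a median of -3.84 and midbrain and hindbrain markers one of -1.29.

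Markers of regions and cell types differed between the samples beside these genes. Markers of midbrain and hindbrain, where Vamp1 and Syt2 are known to be prominent, were lower for 7 of 7 measured genes, 6 of them at least 2-fold, with 3 of 10 under background on both arrays. Their summed signal was 777 in the mutant against 2176 in wild-type. Of 10 cerebellar markers, 3 were higher and 7 lower, with a median of -0.12 and a summed signal of 28575 in the mutant against 27375 in wild-type. Within this list Pcp2 of Purkinje cells gave 36.2 in the mutant and 271 in wild-type and Gabra6 of granule cells gave 41.6 and 144, both under background in the mutant, while Calb1 gave 4826 and 4491, Pcp4 gave 12931 and 12589, and Zic1 gave 6469 and 4938. Among 5 measured fast-spiking interneuron markers, 3 were higher and 2 lower, with a median of 0.004 and a summed signal of 6376 in the mutant against 6141 in wild-type. They ranged from Pvalb, at 255 in the mutant and 391 in wild-type (-0.62), to Tac1, at 3782 and 3186 (0.25). Inhibitory neuron markers were 1 higher and 6 lower, with a summed signal of 13247 in the mutant and 15554 in wild-type. The part of these markers in the lower Syt2, Vamp1 and Cplx1 signals was not tested.

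Markers of excitatory cortical neurons were 5 higher and 2 lower, with a median of 0.32 and a summed signal of 19353 in the mutant against 14765 in wild-type. Nrgn, a calmodulin-binding protein of their dendrites, gave 5811 in the mutant and 2535 in wild-type (1.20), and Tbr1, a transcription factor of deep-layer neurons, gave 1639 and 992 (0.72). These were the highest ratios of the list. The 2 lower genes were Camk2a, at 4249 in the mutant and 5042 in wild-type (-0.25), and Neurod2, at 742 and 781 (-0.07). Cux2 gave 1550 in the mutant and 1435 in wild-type (0.11). Hypothalamic markers were 6 higher and 1 lower, with a summed signal of 9932 in the mutant and 6219 in wild-type. Astrocyte markers were 2 higher and 6 lower (40647 in the mutant, 45307 in wild-type), and microglial markers were 6 higher and 1 lower (9120 in the mutant, 7739 in wild-type). Oligodendrocyte markers, given above, were lower for 9 of 9 genes (2625 in the mutant, 39335 in wild-type). The part of these markers in the higher Vamp2, Cplx2, Cplx3 and Unc13a signals and in the lower Vamp3 signal was not tested.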

How the data were processed

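Total RNA of P14 cerebrum was hybridised to an Affymetrix mouse genome array, 1 array for the lag mutant and 1 for wild-type. The deposited values are linear intensities per probe set, which the authors calculated with MAS5 at default settings and global scaling. MAS5 is also the tool in the submitters' processing notes. The scaling target and detection calls are not given in the sources used here, and median signals were 98.3 in the mutant and 105 in wild-type.

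Of 45101 probe sets, 34958 had 1 gene in the platform annotation, 932 had several and 9211 had none. Of the first, 34754 were matched by identifier to current RefSeq gene symbols. Probe sets paired with several genes or none were left out, among them 1 shared by Vamp1 and another gene. Signals under 49.4 were raised to that level before the log2 ratio was taken, a gene under it on both arrays received no ratio, and a fold with 1 array under it is given as a bound ("at least"). A single level was used so that raising a signal could not turn a direction. A gene took its probe set of highest mean signal. Levels of different probe sets were not set against each other.

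No test was possible with 1 array per genotype, and the small number of arrays limits the precision. Calls were a fold of at least 2, with 1.5 as a second threshold. Named with both values were members past 1.5-fold, the 2 brightest members of each role group, members whose probe sets disagree, related pairs and the canonical release genes, and, outside the members, pathway genes past 1.5-fold and markers of cell types. Further members were named to describe their group. The members and all lists were chosen with earlier results of these data known, and the subplate genes after the value of Cplx3 had been seen. Alternatives were averaging probe sets, plain-suffix probe sets only, background at the 90th or 99th percentile or none, quantile normalisation, centring on the median gene, a 1.5-fold threshold and a mean signal of at least 500. Calculations used Python 3.11.15 with numpy 2.4.6, pandas 2.3.3 and scipy 1.17.1, and plots matplotlib 3.10.9. The calculation of ratios and counts was checked on simulated data. Some planned items are not reported here.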

Additional observations from a re-analysis of the deposited data

How the results depend on the processing

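No paired analysis was possible because only 1 mutant and 1 wild-type array exist here. The median log2 ratio of the members stayed between -0.03 and 0.03 over 9 alternatives, and the tolerance for a moved value was 0.20, the median spread between probe sets of a gene. Syt12 was the only member at least 2-fold higher, and 0 members were with background at the 99th percentile or among genes of mean signal at least 500. With no background level 2 were, the other being Stx19, whose signals are under background on both arrays. At 1.5-fold 2 members were higher and 2 lower. With probe sets averaged, the clathrin adaptor Snap91 was at -0.90 and Snap23 relative to Snap25 at -0.35. Of 436 values of single members, 421 stayed within the tolerance and 15 moved, 0 turned a called value, and 52 of 64 members never changed sign. For members with a single plain-suffix probe set above every background level, most settings could not change the value. Averaging also put Snap25 at 0.39, Stx3 at 0.05, Rims2 at 0.06 and Syt4 at 0.05, and plain-suffix probe sets put Vamp3 at -0.04, Syt11 at -0.11, Stx3 at -0.46 and Stx5a at 0.26. Active zone scaffolds had a median between -0.12 and 0.05, synaptotagmins between -0.02 and 0.10, and plasma membrane target SNAREs between 0.18 and 0.27. Snap91 turned positive under quantile normalisation.

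Over all genes, 142 were at least 2-fold lower and 102 higher, against 67 and 31 with background at the 99th percentile, 980 and 1232 with no background level, and 125 and 127 after quantile normalisation. Dim members have the least certain ratios, and 21 members rest on 1 probe set.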
